A study of Mus musculus with 6 samples.

Results

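This account follows 10 genes of fat cell formation and fat handling in mouse osteoblasts. They are the transcription factors Pparg, Cebpa, Cebpb, Cebpd and Zfp423 and the lipid genes Fabp4, Lpl, Plin2, Adipoq and Cd36. The genes were chosen by name, as regulators or products of fat cell differentiation, and all 10 were found among the 55471 genes of the count table. Of these, 8 were among the 13826 genes with enough reads to be tested, while Fabp4 and Adipoq were not. Poly(A) RNA was sequenced from primary osteoblasts, the bone-forming cells, taken from the skull caps of C57BL/6 mice aged 3 days. The 3 WT libraries were labelled wild type, and whether those mice carried floxed alleles or Cre is not given in the labels. The 3 TCKO libraries came from animals with Prx1-Cre and the alleles Tet1fl/fl, Tet2fl/fl and Tet3fl/fl, a triple conditional knockout of the TET enzymes, which oxidise methylated cytosine. Prx1-Cre acts in the mesenchyme of the limb and skull and not in blood-derived cells, so only part of a mixed culture would carry the deletion. The comparison asks how the RNA of these genes differed between TCKO and WT cells.

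Osteoblasts and fat cells can arise from a shared mesenchymal precursor. In cultured preadipocytes, C/EBPβ and C/EBPδ are induced first and promote expression of PPARγ and C/EBPα, which hold each other on and switch on the genes of lipid uptake, storage and secretion. PPARγ is the factor without which fat cells do not form.

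Before the genes are described, the libraries need a description. Total counts were between 8019999 and 10177214 per library, which sets what a count of 0 allows. Its upper limit of 3 counts was worth 0.295 to 0.374 CPM (counts scaled to a library of 1000000), depending on the library. This floor covers counting error only. Replicates 1 and 2 of a genotype lay close together, with a biological coefficient of variation of 3.00% in WT and 3.62% in TCKO, whereas pairs with replicate 3 varied by 16.4% to 18.4%. TCKO replicate 3 held 4583 Xist counts and 0 Ddx3y counts, against 1 to 4 and 675 to 1094 in the other libraries. By these counts TCKO replicate 3 was female and the other libraries were male, so it came from other animals than TCKO replicates 1 and 2. Sex thus differed within TCKO and between the replicate 3 libraries, and its part in any difference was not tested. Beyond this, the labels do not say whether the replicates were separate cultures or animals, so a p-value measures only the spread between these libraries. Tet1 had 98 to 131 counts in WT and 51 to 68 in TCKO and was lower (log2 fold change -0.97, adjusted p = 0.00649 by edgeR), Tet2, at 132 to 213 and 121 to 161 counts, did not pass (-0.14, adjusted p = 0.545) and Tet3, at 452 to 611 and 622 to 795 counts, was higher (0.51, adjusted p = 0.00744). These counts cover every exon of a gene, including those outside the floxed part, and so do not check the deletion. The osteoblast markers Runx2 and Col1a1 were present in both genotypes, at 95.4 and 22277 CPM in WT and 70.0 and 14550 CPM in TCKO. Of 8 listed fat cell markers, Adipoq, Plin1, Cidec, Lep and Cfd had 0 counts in all 6 libraries. Retn and Pck1 had at most 1 count in any library. Plin4 had 13 to 35 counts in WT and 3 to 10 in TCKO.

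Of the 8 tested genes, 1 rose in TCKO (Plin2), 2 fell (Lpl and Cd36) and 5 did not pass. Passing means an adjusted p under 0.05 in edgeR's quasi-likelihood test, corrected by the Benjamini-Hochberg method over all tested genes. Among all tested genes, 9.08% rose and 8.63% fell. With a fold change over 2 also required, Plin2 was higher and Cd36 lower, beside 3.16% of all tested genes higher and 3.19% lower. CPM values of the genotypes did not overlap for 1 gene that was higher in TCKO (Plin2) and 3 that were lower (Cebpa, Lpl and Cd36), beside 19.5% and 18.9% of all tested genes. The median log2 fold change of the 8 genes was -0.39, and that of their sizes without sign 0.73, beside 0.22 for the sizes over all tested genes. In this bulk RNA, fewer cells of a type and less RNA per cell cannot be told apart.

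**Figure D1:**
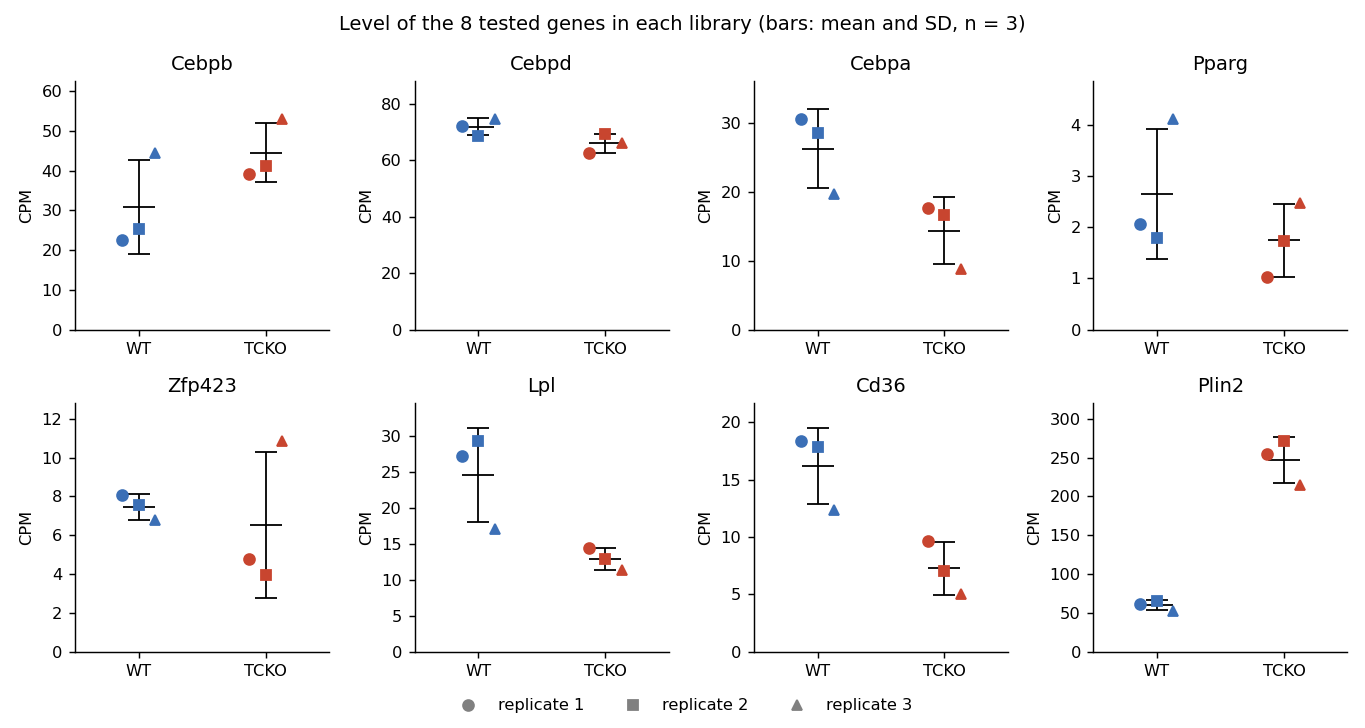
Level of the 8 tested genes in each library, in CPM on a linear axis from 0, for WT (blue) and TCKO (red). Symbols give the replicate number, and black bars the mean and SD of 3 libraries. Plin2 lies between 52.5 and 65.1 CPM in WT and between 214 and 271 CPM in TCKO, and Cebpb, Cebpd, Pparg and Zfp423 overlap between the genotypes.

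Plin2 encodes perilipin 2, a coat protein of lipid droplets that is found in many cell types besides fat cells. It was the gene with the greatest difference of the 8. Plin2 (chr4:86648386-86670060, minus strand, GRCm38) was at 61.5, 65.1 and 52.5 CPM in WT replicates 1 to 3. In TCKO replicates 1 to 3 it was at 255, 271 and 214 CPM. Every TCKO library was thus above every WT library, and replicate 3 was the lowest of each genotype. The rise was 4.13-fold, a log2 fold change of 2.05 ± 0.12 (SE, n = 3 per genotype, 95% confidence interval 1.77 to 2.32), with an adjusted p of 0.000104 in edgeR. It passed in 18 of 18 alternative analyses. The difference in log2(CPM + 2) was 2.02 within replicates 1 and 2 and 1.99 within replicate 3.

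The level of a gene relative to others was compared per length, as RPKM (CPM divided by the exon length in kilobases). By mean, Plin2 was the third of the 10 genes in WT, at 17.0 ± 1.85 RPKM (SD, n = 3). Its range over the WT libraries overlapped those of Cebpd and Cebpb. In TCKO Plin2 was the first, at 70.3 ± 8.33 RPKM, clear of Cebpb. Its level exceeded that of 77.0% of the tested genes in WT and of 94.6% in TCKO.

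Lpl and Cd36 act in the uptake of fatty acids, and both were lower in TCKO. Lpl encodes lipoprotein lipase, which frees fatty acids from circulating lipoproteins. Lpl (chr8:68880491-68907448, plus strand) was at 27.2, 29.3 and 17.1 CPM in WT replicates 1 to 3. In TCKO it was at 14.5, 12.9 and 11.3 CPM. The genotypes did not overlap, and WT replicate 3 lay nearest to the TCKO libraries. Lpl fell by 0.93 ± 0.21 on the log2 scale (SE, n = 3, 95% confidence interval -1.42 to -0.44), 1.90-fold, with an adjusted p of 0.0219 in edgeR. The adjusted p ranged from 9.77e-12 to 0.196 over 18 alternatives, of which 13 passed. The call was lost without WT replicate 1 (0.0865), WT replicate 2 (0.0895), TCKO replicate 1 (0.0540) or TCKO replicate 2 (0.0753), and with replicates 1 and 2 summed to 1 library per genotype (0.196).

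Cd36 encodes a membrane receptor that takes up long-chain fatty acids and oxidised lipoproteins. Cd36 (chr5:17781690-17888801, minus strand) was at 18.4, 17.8 and 12.3 CPM in WT replicates 1 to 3. In TCKO it was at 9.68, 7.07 and 5.04 CPM. The lowest WT library was above the highest TCKO library, and replicate 3 was the lowest of each genotype. Cd36 fell by 1.16 ± 0.26 on the log2 scale (SE, n = 3, 95% confidence interval -1.75 to -0.56), 2.23-fold, with an adjusted p of 0.0198 in edgeR. Of 18 alternatives 14 passed, with adjusted p from 3.45e-09 to 0.147. The call was lost without WT replicate 1 (0.0808), WT replicate 2 (0.0820) or TCKO replicate 2 (0.0732), and with replicates 1 and 2 summed (0.147). The difference in log2(CPM + 2) for Cd36 was -0.96 within replicates 1 and 2 and -1.03 within replicate 3, and that for Lpl was -0.95 and -0.52.

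Macrophages also express Lpl, Cd36 and Plin2, so a list of 16 macrophage markers was read beside them. All 16 had a negative log2 fold change, with a median of -0.91. Of the 16, 4 passed as lower (Adgre1, Csf1r, Itgam and Spi1), beside 8.63% of all tested genes. Their summed level was 838, 849 and 437 CPM in WT replicates 1 to 3 and 587, 629 and 179 CPM in TCKO. The summed level overlapped between the genotypes and was lower in replicate 3, at 0.518 times the mean of replicates 1 and 2 in WT and 0.294 times in TCKO. The same ratio for Cd36 was 0.682 in WT and 0.601 in TCKO, that for Lpl 0.604 and 0.826, and that for Plin2 0.829 and 0.815. None of the 16 markers was at 0 in every library. With the replicate number as a block 15 of 16 passed as lower, beside 1585 of 13826 tested genes. With replicates 1 and 2 summed and the same block, 5 of 16 passed, beside 584 higher and 566 lower of all tested genes. The part of macrophages in the lower Lpl and Cd36 and in the higher Plin2 was not tested. Of 11 tested osteoblast markers 1 rose (Spp1) and 5 fell, among them Runx2, Sparc, Col1a1 and Alpl, the last named after its values were seen. Of all tested genes 9.08% rose and 8.63% fell. Only 3 of 10 endothelial and 3 of 10 skeletal muscle markers had enough reads to be tested, of which Esam and Acta1 rose and Eng fell.

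**Figure D2:**
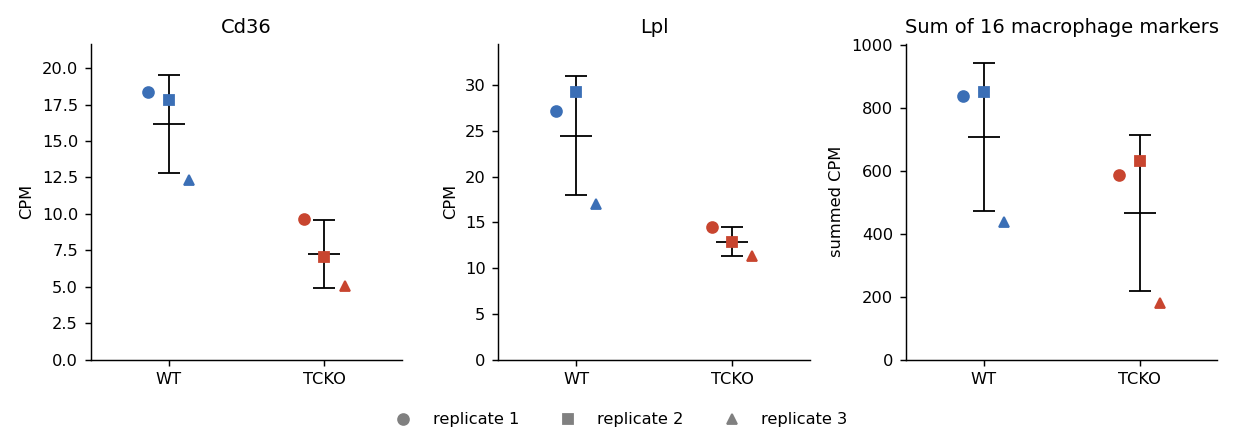
Cd36 and Lpl in CPM, and the summed CPM of 16 macrophage markers, in each library on linear axes from 0 (symbols give the replicate number, black bars the mean and SD of 3 libraries). Cd36 and Lpl do not overlap between the genotypes, whereas the marker sum runs from 437 to 849 CPM in WT and from 179 to 629 CPM in TCKO.

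Fabp4, the fatty acid carrier of fat cells and macrophages, and Adipoq, the hormone adiponectin secreted by fat cells, were at the limit of detection. Fabp4 (chr3:10204088-10208576) had 0, 1 and 1 counts in WT replicates 1 to 3 and 2, 1 and 3 counts in TCKO. Adipoq (chr16:23146536-23158028) had 0 counts in all 6 libraries, which allows up to 3 counts in each. A difference in either gene was not detectable at this depth, and no fold change is given.

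PPARγ and C/EBPα are the pair that drives terminal fat cell differentiation. Cebpa (chr7:35119293-35121928, plus strand) was at 30.6, 28.5 and 19.7 CPM in WT replicates 1 to 3. In TCKO it was at 17.7, 16.6 and 8.84 CPM. The genotypes did not overlap, and replicate 3 was the lowest of each. The log2 fold change of Cebpa was -0.87 ± 0.27 (SE, n = 3, 95% confidence interval -1.49 to -0.25), and the adjusted p of 0.0616 in edgeR missed the threshold. With the replicate number as a block the adjusted p was 0.00301, and with replicates 1 and 2 summed and the same block it was 0.0325, so that Cebpa passed in both. It also passed in DESeq2 (0.0152), without the filter on low counts (0.00379) and without WT replicate 3 (0.0315). In all it passed in 8 of 18 alternatives, with adjusted p from 1.39e-08 to 0.271 and the same sign throughout. Within replicates 1 and 2 the difference in log2(CPM + 2) was -0.72, and within replicate 3 it was -1.002.

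Pparg (chr6:115360951-115490399, plus strand) was measured on few reads. It had 17, 18 and 34 counts in WT replicates 1 to 3 and 9, 14 and 22 counts in TCKO, or 2.65 ± 1.27 and 1.74 ± 0.72 CPM (SD, n = 3). The genotypes overlapped, and replicate 3 was the highest of each. The log2 fold change of -0.59 ± 0.44 (SE) did not pass, with an adjusted p of 0.405 in edgeR and a 95% confidence interval from -1.61 to 0.43. Pparg passed in 0 of 17 alternatives, and the range of adjusted p was 0.142 to 0.841. At 0.90 ± 0.43 RPKM in WT and 0.59 ± 0.24 RPKM in TCKO it was the lowest of the 8 tested genes in both genotypes, although its range overlapped that of Zfp423.

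Cebpb and Cebpd, the early factors, were the most abundant of the 10 genes in WT per length, at 20.5 ± 7.88 and 19.2 ± 0.80 RPKM (SD, n = 3). Cebpb (chr2:167688915-167690418, plus strand) was at 22.6, 25.4 and 44.4 CPM in WT replicates 1 to 3. In TCKO it was at 39.3, 41.3 and 53.0 CPM. Replicate 3 was the highest of each genotype, and WT replicate 3 lay above TCKO replicates 1 and 2, so the genotypes overlapped. The log2 fold change of Cebpb was 0.54 ± 0.25 (SE, 95% confidence interval -0.04 to 1.11) and did not pass, with an adjusted p of 0.181 in edgeR. With the replicate number as a block the adjusted p was 0.0156, and with replicates 1 and 2 summed and the same block it was 0.110, so that the call was lost again. Without WT replicate 3 it was 0.00824, and over 18 alternatives it ran from 6.93e-10 to 0.513, with 5 passing. The difference in log2(CPM + 2) was 0.70 within replicates 1 and 2 and 0.25 within replicate 3. Cebpb shares 312 bases of exon with Tmem189 on the opposite strand, which had 3619 counts against 1961 for Cebpb. Whether counting used the strand is not stated in the sources used here, so the level of Cebpb is uncertain. Tmem189 itself had a log2 fold change of 0.01.

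Cebpd (chr16:15887286-15891031, plus strand) differed least between the libraries. It was at 72.1, 68.7 and 74.6 CPM in WT replicates 1 to 3 and 62.5, 69.3 and 66.1 CPM in TCKO. TCKO replicate 2 lay within the WT range. The log2 fold change of Cebpd was -0.12 ± 0.08 (SE, 95% confidence interval -0.30 to 0.05), with an adjusted p of 0.314 in edgeR, and it passed in 0 of 18 alternatives, where adjusted p ran from 0.214 to 0.595. Cebpd shares 562 bases of exon with Spidr on the opposite strand, which had 444 counts against 3603, so its level is also less certain.

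Zfp423 encodes a zinc finger protein that commits precursors to the fat lineage by promoting Pparg expression. Zfp423 (chr8:87661810-87959595, minus strand) was at 8.09, 7.56 and 6.77 CPM in WT replicates 1 to 3. In TCKO it was at 4.78, 3.97 and 10.9 CPM. TCKO replicates 1 and 2 lay below all WT libraries, and TCKO replicate 3 above them. The log2 fold change of -0.19 ± 0.36 (SE, 95% confidence interval -1.02 to 0.64) did not pass, with an adjusted p of 0.762 in edgeR and a range of 0.00106 to 0.996 over 18 alternatives. Without TCKO replicate 3, the library with Xist counts, the log2 fold change of Zfp423 was -0.76 with an adjusted p of 0.0341. With replicates 1 and 2 of both genotypes only, a fit added after the data were seen, it was -0.83 (adjusted p = 0.00106). The difference in log2(CPM + 2) was -0.63 within replicates 1 and 2 and 0.55 within replicate 3, so the direction differed between these sets, and this difference was not tested.

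**Figure D3:**
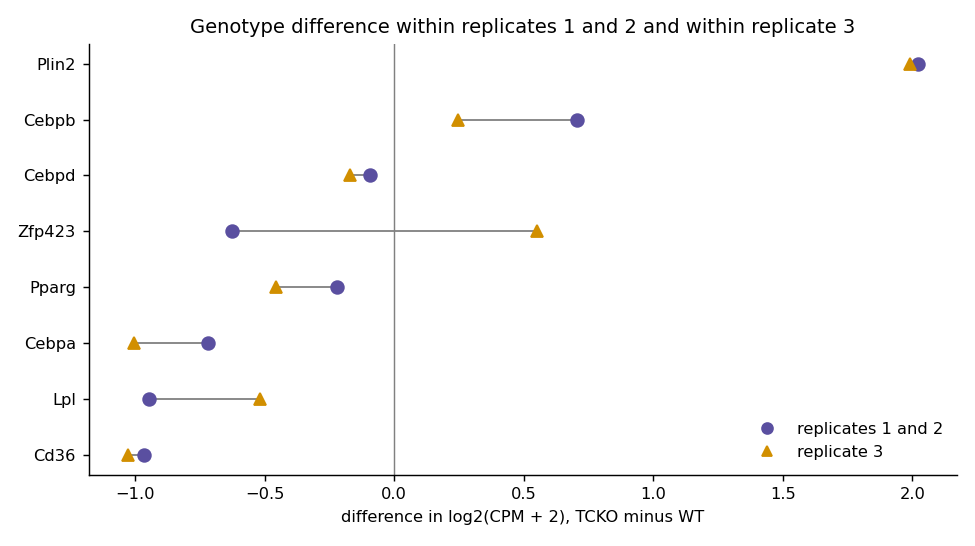
Difference in log2(CPM + 2), TCKO minus WT, for each tested gene within replicates 1 and 2 (circles, difference of means of 2 libraries per genotype) and within replicate 3 (triangles, 1 library per genotype). Plin2 is near 2 in both sets, Cd36 is at -0.96 and -1.03, and Zfp423 is on opposite sides of 0, at -0.63 and 0.55.

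Ordered by length-scaled level, the 10 genes ran in WT from Cebpb, Cebpd and Plin2, whose neighbours overlapped, through Cebpa at 9.96 ± 2.18 RPKM, Cd36 at 4.50 ± 0.93 and Lpl at 2.34 ± 0.62 to Zfp423 at 1.33 ± 0.12 and Pparg (SD, n = 3). In TCKO the order was Plin2, Cebpb at 29.6 ± 4.94, Cebpd at 17.6 ± 0.91, Cebpa at 5.45 ± 1.83, Cd36 at 2.02 ± 0.65, Lpl at 1.23 ± 0.15, Zfp423 at 1.17 ± 0.67 and Pparg. By mean RPKM, Plin2 moved above Cebpb and Cebpd, and the order of the other genes among themselves was unchanged. Single libraries did not all follow this order. In TCKO the ranges of Lpl and Zfp423 and of Zfp423 and Pparg overlapped. TCKO replicate 3 of Zfp423, at 1.94 RPKM, was also above that of Cd36, at 1.40.

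**Figure D4:**
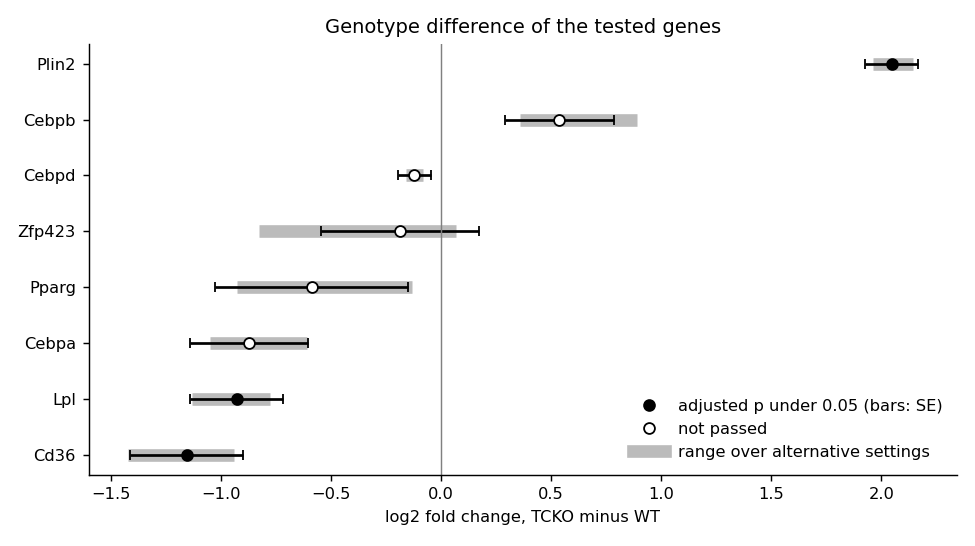
Log2 fold change, TCKO minus WT, of the 8 tested genes in edgeR, with SE as black bars (3 libraries per genotype) and the range over the alternative analyses as grey bands. Filled points have an adjusted p under 0.05. Plin2 is at 2.05, Cd36 at -1.16 and Lpl at -0.93, and the band of Zfp423 crosses 0.

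The bases upstream of the start site are shown for Plin2, Cd36 and Cebpa, the genes of greatest difference for which a RefSeq promoter was at hand (GRCm38.p6). Entries were found for 7 of the 10 genes, and there were none for Cebpd, Fabp4 and Lpl. CpG sites, the bases that TET enzymes act on when methylated, are in capitals, a marking chosen after the values were seen. The sequences run 5′ to 3′ on the strand of the gene and end at the base before the start. They are chr4:86670060-86670309 (minus strand) for Plin2, chr5:17835897-17836146 (minus strand) for Cd36 and chr7:35119043-35119292 (plus strand) for Cebpa. The Cd36 start of this entry, at 17835896, lies inside the gene, whose outermost 5′ end on the minus strand is at 17888801. The Cd36 values below thus describe an internal start.
Plin2: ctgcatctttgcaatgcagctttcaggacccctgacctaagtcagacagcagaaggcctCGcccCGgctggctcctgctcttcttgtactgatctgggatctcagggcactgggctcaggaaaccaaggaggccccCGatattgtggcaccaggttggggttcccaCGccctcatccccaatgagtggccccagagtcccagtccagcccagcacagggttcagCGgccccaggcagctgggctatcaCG
Cd36: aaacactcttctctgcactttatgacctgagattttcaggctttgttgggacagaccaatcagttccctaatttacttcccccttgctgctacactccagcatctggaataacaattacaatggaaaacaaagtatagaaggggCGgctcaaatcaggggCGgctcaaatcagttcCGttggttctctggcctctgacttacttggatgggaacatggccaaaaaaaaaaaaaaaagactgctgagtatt
Cebpa: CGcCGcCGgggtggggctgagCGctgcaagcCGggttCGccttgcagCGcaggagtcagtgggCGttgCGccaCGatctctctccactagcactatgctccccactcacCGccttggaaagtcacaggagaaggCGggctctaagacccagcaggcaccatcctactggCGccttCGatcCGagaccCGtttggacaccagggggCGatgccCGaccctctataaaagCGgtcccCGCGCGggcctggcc
The Plin2 stretch holds 6 CpG sites, that of Cd36 3 and that of Cebpa 22. In windows of 300 bases that also include the 50 bases after the start, the counts were 10, 3 and 29, beside a median of 7 over 32851 windows of 27025 genes. Adipoq had 0 CpG sites in its window and Cebpb 50.

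These windows were searched on both strands for 6 patterns. The nuclear receptor half-site AGGTCA was found in the windows of Plin2 and Cd36, where its first base lay 218 and 228 bases before the start, also in windows of Pparg and Zfp423, and in 16.3% of all windows. The E-box CACGTG was found in the Plin2 window, starting 4 bases before the start site, and in 7.15% of all windows. A pair of half-sites with 1 base between, the arrangement bound by PPAR and RXR, was in none of the members' windows and in 0.0396% of all windows. TATAAA lay 30 bases before the start of Cebpa, was also in windows of Pparg and Cebpb, and was in 13.6% of all windows. The C/EBP core TTGCNNAA was found for Pparg and Zfp423 (10.8% of all windows) and the RUNX core TGTGGT for no member (16.8%). A match describes letters only, and no binding or methylation was measured here.

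The wider pathway was read from lists that held 174 genes besides the members, of which 150 were tested. Of these 16 rose, 28 fell and 106 did not pass, with a median log2 fold change of -0.12. With replicates 1 and 2 summed to 1 library per genotype, 4 rose and 2 fell, beside 217 and 169 of all 13826 tested genes. Without this summing, 9.08% of all tested genes rose and 8.63% fell, and each list count below stands beside these shares.

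Among 23 tested cofactors of fat cell formation, 2 rose and 6 fell, with a median log2 fold change of -0.25. Nfib, which binds beside PPARγ at fat cell genes, fell from 43.1 ± 3.77 to 21.5 ± 2.84 CPM (SD, n = 3, adjusted p = 0.00167 in edgeR). Klf4, which acts early upstream of Cebpb, fell by 1.28 on the log2 scale and the glucocorticoid receptor Nr3c1 by 0.41, while Ebf3 rose by 0.59 and Klf5 by 0.45. Among 24 inhibitors, 5 rose and 5 fell, with a median of 0.05. Gata3, which represses Pparg in preadipocytes, was at 0.97, 1.99 and 1.81 CPM in WT and 12.6, 12.9 and 19.8 CPM in TCKO, without overlap. Its log2 fold change was 3.22 ± 0.30 (SE, adjusted p = 0.000600 in edgeR). Nr2f2 (0.99) and Wwtr1 (0.39), which encodes the PPARγ-binding coregulator TAZ, also rose. Wnt5a, named after its values were seen because the count was small, rose by 0.73. Foxo1 fell by 1.10, Klf3 by 0.70 and Klf7 by 0.56, as did Klf2 (-1.60) and Wnt10b (-1.72), also named for that reason.

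Among 7 tested genes of the PPAR family and its partners, 2 passed in edgeR, and both were lower in TCKO. They were the receptor Rxra, which pairs with PPARγ on DNA and fell by 0.44 on the log2 scale, and the coactivator Ncoa3, which fell by 0.61. Of the 7 genes, 4 had an unadjusted p under 0.05 in edgeR and 3 passed in DESeq2. By sign, 2 were higher and 5 lower. Ppargc1b, named after its values were seen, had a log2 fold change of 1.62 and did not pass (adjusted p = 0.0675 in edgeR). It passed in 8 of 17 alternatives. Of the 3 genes tested from the C/EBP list (Ddit3, Cebpg and Cebpz) 0 passed in edgeR, with 0 at an unadjusted p under 0.05 and 0 in DESeq2. For the most abundant, Ddit3 and Cebpg, the log2 fold changes were 0.01 and -0.25.

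Of 28 listed genes of the mature fat cell, 16 were tested and 7 were at 0 in all 6 libraries, and of the 16 tested 2 rose and 2 fell, with a median of -0.02. Fabp5, a fatty acid carrier of the same family as Fabp4, rose from 38.3 ± 3.92 to 73.9 ± 7.11 CPM (SD, n = 3, adjusted p = 0.00128 in edgeR). Pnpla2, which encodes the triglyceride lipase ATGL, rose by 0.42 on the log2 scale. Acsl1, which activates long-chain fatty acids, fell by 0.66 and Lpin1, a phosphatidate phosphatase, by 0.64. Among 20 tested genes of fatty acid uptake 4 rose and 4 fell. Acsl4 rose by 0.92 (adjusted p = 0.000602) and the transporter Slc27a1 by 0.78, while the lipoprotein receptor Vldlr fell by 0.94 and Slc27a3 by 0.58. Lipg, a lipase related to Lpl, rose by 1.91 and Scarb2 fell by 0.29, both named after their values were seen because the counts were small. Lipg was measured on few reads, with 1, 8 and 7 in WT replicates 1 to 3 and 23, 21 and 15 in TCKO. It passed in 11 of 17 alternatives.

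Of the 16 tested droplet genes other than Plin2, 1 rose (Pnpla2) and 2 fell. G0s2, an inhibitor of ATGL, fell by 2.82 on the log2 scale (adjusted p = 0.00489 in edgeR), from 6.09 ± 2.36 to 0.86 ± 0.36 CPM (SD, n = 3). Bscl2, which encodes seipin, a protein needed for droplet formation, fell from 55.0 ± 1.87 to 27.4 ± 6.34 CPM (adjusted p = 0.00483). The sister gene Plin4 was at 2.53 ± 1.53 CPM in WT and 0.65 ± 0.41 CPM in TCKO and did not pass (adjusted p = 0.0624).

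Of 19 tested genes of fatty acid synthesis 1 rose and 6 fell, with a median of -0.20. Fasn, the fatty acid synthase, rose by 0.33 on the log2 scale, while Gpam, which starts glycerolipid synthesis, fell by 0.71, Acss2 by 0.85 and Elovl1 by 0.33. Scd2, the most abundant per length, did not pass (0.74, adjusted p = 0.104 in edgeR). It was at 727, 777 and 705 CPM in WT replicates 1 to 3 and 1525, 1488 and 676 CPM in TCKO. The summed level of the list was 2415, 2458 and 2389 CPM in WT and 3239, 3161 and 2189 CPM in TCKO. Of 20 tested oxidation genes 2 rose (Acadl, 0.41, and Acads, 0.38) and 2 fell (Ehhadh, -1.15, and Acadvl, -0.31). Of 19 cholesterol genes 1 rose (Scap, 0.26) and 3 fell, among them Mvk (-0.62) and Dhcr7 (-0.45), with a median of -0.28. With the replicate number as a block 1 rose and 9 fell, beside 1664 and 1585 of 13826 tested genes. With replicates 1 and 2 summed and the same block only 1 of the 19 passed.

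**Figure D5:**
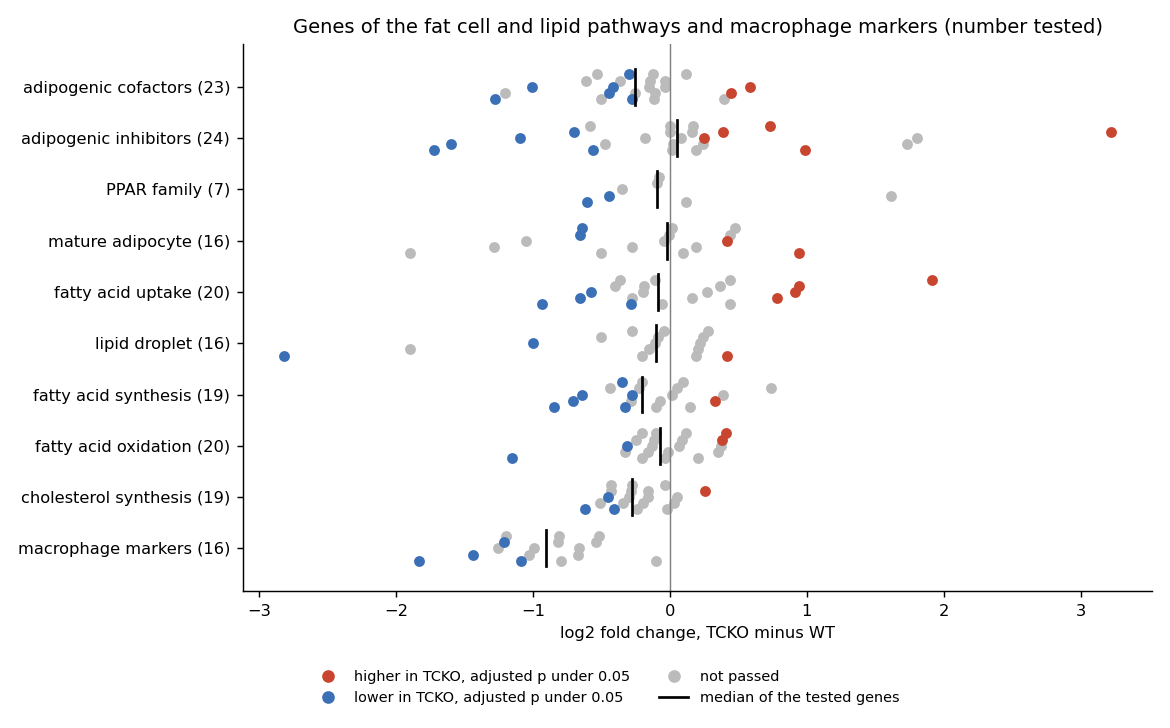
Log2 fold change, TCKO minus WT, of the tested genes of each list, with the number tested in brackets. Each point is a gene, red where higher and blue where lower at an adjusted p under 0.05 in edgeR and grey otherwise, and the black line is the median, which runs from -0.28 for cholesterol synthesis to 0.05 for adipogenic inhibitors and is -0.91 for the macrophage markers.

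The genes whose log2 CPM was most alike over the 6 libraries, among 7535 with a mean of at least 20 CPM, were Agap1 and Gcsh for Plin2 (Pearson's r = 0.999 for both). They were Fbxl7 and Cdk14 for Lpl, 2510009E07Rik and Tcf4 for Cd36 (both r over 0.99), Ak5 and Mylip for Cebpa, and Prkd2 and Amot for Zfp423. For Cebpb they were Entpd6 and Speg, for Pparg Etfrf1 and Tfpi, and for Cebpd Mfsd5 and Rce1 with the lowest r of 0.975 and 0.973. Over 6 libraries that share 2 genotypes and a close pair in each, values this high are a description only.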

How the data were processed

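Per the labels, the submitters' processing notes name CASAVA, STAR 2.7.0e, featureCounts 2.0.0 and DESeq2, with build GRCm38. The authors aligned the reads and counted them per gene over exons. The deposited values are raw counts for 55471 genes in 6 libraries. The deposited length is the exon length in bp. Use of the strand in counting is not given in the sources used here. Symbols were matched by identifier for 55144 genes (99.4%).

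The members and all gene lists were chosen with earlier results of these data known. Genes were filtered with filterByExpr, scaled with TMM factors and tested between genotypes with edgeR 4.0.16 (glmQLFit, glmQLFTest) in R 4.3.3 without covariates, with Benjamini-Hochberg adjustment over 13826 genes. Tested genes held 99.7% to 99.8% of the counts of a library. The procedure was tested on simulated data. The simulated libraries were independent with a single dispersion, so that test does not cover the close replicate pairs seen here. RPKM used the TMM-scaled library size and the deposited length. CPM used the same library size. All 10 members were named, and from each list up to 3 passing genes per direction with the lowest adjusted p and the 2 of highest RPKM. Some genes that met this rule are not reported here.

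Deviations from the genotype means correlated between same-numbered WT and TCKO libraries (r = 0.204, 0.214 and 0.347). The replicate number was therefore used as a block in alternative analyses, though not in the test as reported. WT and TCKO replicates 1 and 2 correlated about as much across numbers (0.188 and 0.225). These values set only replicate 3 apart and do not show that 1 and 2 are pairs. Alternatives were other scaling factors, filters, DESeq2 1.42.0, a replicate block, a term for replicate 3, summing replicates 1 and 2, and leaving out each library.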

Additional observations from a re-analysis of the deposited data

How the results depend on the processing

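Plin2 passed and kept its direction under every alternative tried. Zfp423 turned to a log2 fold change of 0.0251 with replicates 1 and 2 summed and no block, and its value when 1 library was left out ran from -0.764 without TCKO replicate 3 to 0.0655 without TCKO replicate 2. Over all tested genes (1255 higher and 1193 lower in the analysis as reported), the counts were 2191 and 2083 with a term for replicate 3, 217 and 169 with replicates 1 and 2 summed, 584 and 566 with these summed and a replicate block, 3121 and 3116 with replicates 1 and 2 only, and between 602 and 1613 and between 550 and 1509 when 1 library was left out. With the replicate block alone they were 1664 and 1585. Over 2-fold (437 and 441), the counts were 255 and 288 when genes averaging under 50 counts were dropped, 178 and 146 when replicates 1 and 2 were summed, 663 higher with replicates 1 and 2 only, and 295 to 538 higher and 300 to 511 lower when 1 library was left out.

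Of the 8 members, 2 were higher in place of 1 without the filter, with the replicate block, with the replicate 3 term and with replicates 1 and 2 only, and 0 were lower in place of 2 with replicates 1 and 2 summed and 4 with these alone. Leaving out 1 library gave 1 to 2 higher and 0 to 3 lower. The replicate block gave 3 lower, adding Cebpa, and added Cebpb to those higher, but changed no other call among the members. With replicates 1 and 2 summed and the same block, 1 was higher and 3 were lower, so that Cebpa still passed and Cebpb did not. Of the related genes (16 and 28), 26 and 49 passed with the replicate 3 term, 4 and 2 with replicates 1 and 2 summed, 8 and 13 with these summed and a block, 22 and 42 with the replicate block, 34 and 60 with replicates 1 and 2 only, and 7 to 19 and 13 to 36 when 1 library was left out. The analysis of replicates 1 and 2 only was chosen after seeing the data. Depth limited Pparg, Fabp4 and Adipoq.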
